A study of Mus musculus with 3 samples.

Results

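The receptors of the common gamma chain cytokines were followed through 3 RNA-seq libraries of mouse pre-B cells. The 9 genes encode the receptor chains for IL-2, IL-4, IL-7, IL-9, IL-15 and IL-21, together with the receptor chain for TSLP, and were taken by gene symbol from a table of 26286 Entrez genes; all 9 were found. They were Il7r, Il2ra, Il2rb, Il2rg, Il4ra, Il21r, Il9r, Il15ra and Crlf2. The choice rested on gene names and used no measured value, although earlier results of these libraries were known when it was made. All libraries belong to 1 group. The cells came from bone marrow of mice carrying 2 transgenes: CAG-rtTA3, a transactivator that switches on in the presence of doxycycline, and TRE-GFP-shLuc.1309, which answers to it with GFP and a control short hairpin RNA. Every animal received doxycycline (Dox) for 3 days, so no library shows the cells without the drug or the hairpin. Cells were sorted as GFP+, B220+, CD25+, IgM- and Kit-. The labels do not tie a library to an animal of its own, so p-values measure only the spread between these libraries, which may be technical in part.

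Receptors of this family are built from shared parts. The common gamma chain, encoded by Il2rg, carries no cytokine preference of its own and pairs with a private chain for each cytokine, while Jak3 on the gamma chain and Jak1 on the partner chain phosphorylate Stat factors. IL-7 made by marrow stroma sustains survival and division of mouse pro-B and large pre-B cells, and fading IL-7 signals accompany the passage to small, recombining pre-B cells. The TSLP receptor borrows the IL-7 receptor chain but pairs it with Crlf2 in place of the gamma chain. CD25, encoded by Il2ra, is the surface marker that separates pre-B from pro-B cells in mouse marrow.

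Total counts ran from 12021576 to 32086649, a 2.67-fold range, and replicate 3 was the deepest. Replicate 3 is also the only library read with CASAVA 1.8.0 in place of 1.8.2, so that software version and library cannot be told apart. Replicate 1 stood apart in sex-linked RNA, with 22609 counts of Xist against 94 and 70 in replicates 2 and 3, and with 1 count of the Y-linked Ddx3y against 1950 and 4881. Replicate 1 therefore did not share its animals with the other libraries, whereas replicates 2 and 3 cannot be told apart in this way. The defining genes of the labelled cells were present: all 10 pre-B markers exceeded 1 RPKM (a count divided by gene length and by library size) in every library, and the negatively gated Kit stood at 0.791 ± 0.327 RPKM (SD, n = 3). Ighm, the gene of the negative IgM gate, is among those pre-B markers and stood at 6749 ± 498 RPKM. The gates were set on protein, which was not measured here. Transcripts of other marrow cells were present as well. The summed level of 12 neutrophil markers was 1370, 1650 and 2430 RPKM in replicates 1, 2 and 3, and that of 8 basophil and mast cell markers was 3.38, 7.06 and 23.6 RPKM, with Mcpt4 and Cma1 at no counts. In bulk RNA, fewer cells of a type and less RNA per cell cannot be told apart.

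The family covered a 622-fold range of mean level, with 7 of the 9 genes at 1 RPKM or more in every library. That level was reached by 42.4% of all genes in the table. The same 7 genes lay above the median of the 17423 genes with a count. In order of mean level per length they were Il7r, Il2ra, Il2rg, Il21r, Crlf2, Il4ra and Il15ra, followed by Il2rb and Il9r below 1 RPKM on average. The middle of that order rests on division by gene length. In CPM, counts scaled to library size without that division, Il4ra (83.3 CPM) stood above Il2rg (67.3), Il21r (61.8) and Crlf2 (25.4). The summed level of the 9 genes was 432, 443 and 365 RPKM in replicates 1, 2 and 3, and the 3 highest genes made up 83.6 ± 3.06% of it (SD, n = 3).

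**Figure D1:**
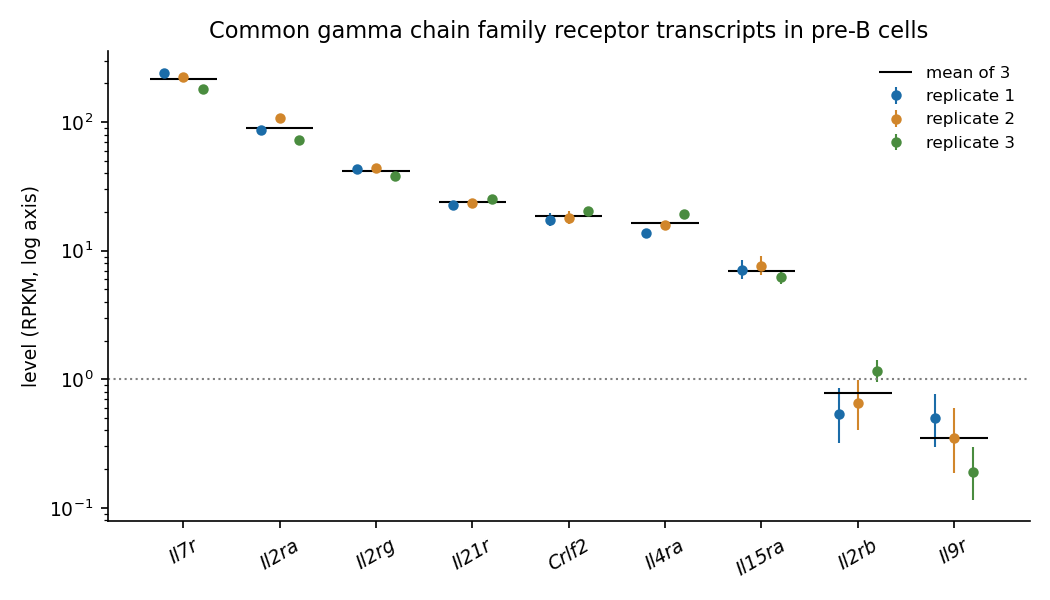
Level of each receptor gene in RPKM on a log axis, with 1 point per library, vertical bars for the exact Poisson 95% interval of the count, a black line for the mean of 3 libraries and a dotted line at 1 RPKM. Il7r sits highest at a mean of 215 RPKM, and Il2rb and Il9r sit around and below the dotted line.

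The IL-7 receptor chain gene Il7r (Entrez 16197) was the most abundant. Its levels in replicates 1, 2 and 3 were 240, 225 and 181 RPKM, with a mean of 215 ± 30.6 RPKM (SD, n = 3), and exceeded 98.5% of the genes with a count. Its lowest library was replicate 3, whose counting interval of 178 to 184 RPKM did not touch those of the other libraries. On its own Il7r made up 52.0 ± 3.16% of the summed level of the family.

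The common gamma chain gene Il2rg (Entrez 16186) stood at 43.4, 43.8 and 37.96 RPKM in replicates 1, 2 and 3, or 41.7 ± 3.26 RPKM. Replicates 1 and 2 were close to each other and replicate 3 was lowest. Il2rg is X-linked, and replicate 1, which carried Xist, gave nearly the same level as replicate 2, which did not. Il7r exceeded Il2rg in each library, by 2.45, 2.35 and 2.24 on the log2(RPKM + 0.5) scale, a mean difference of 2.35 ± 0.108 or 5.08-fold. The chains that share Il2rg as their signalling partner, Il7r, Il2rb, Il4ra, Il21r and Il9r, added up to 6.39, 6.05 and 5.98 times the Il2rg level in replicates 1, 2 and 3. That ratio varied by less than the levels of its largest terms. These are ratios of transcripts, and no protein was measured.

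Crlf2 (Entrez 57914), the chain that makes the IL-7 receptor chain responsive to TSLP, stood at 17.5, 18.1 and 20.5 RPKM, or 18.7 ± 1.57 RPKM. It was highest in replicate 3, the library where Il7r was lowest. Il7r was therefore 13.8 times the level of Crlf2 in replicate 1, 12.4 times in replicate 2 and 8.85 times in replicate 3. On the log2 scale Crlf2 lay below Il7r by 3.48 on average (difference -3.48 ± 0.329, 11.2-fold).

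The IL-2 receptor chains were far apart. Il2ra (Entrez 16184), the CD25 chain that raises affinity for IL-2 but has no signalling part of its own, had 86.7, 108 and 73.1 RPKM in the same order of libraries, with a mean of 89.3 ± 17.7 RPKM. CD25 was a positive gate of the sort, so a high level describes the cells that were collected. The 3 libraries gave separate counting intervals, with replicate 2 highest and replicate 3 lowest. Il2rb (Entrez 16185), the signalling chain shared by the IL-2 and IL-15 receptors, had 18, 21 and 101 counts, or 0.537, 0.650 and 1.16 RPKM. Its intervals were 0.318 to 0.849 RPKM in replicate 1, 0.402 to 0.993 in replicate 2 and 0.948 to 1.41 in replicate 3, so the upper library overlapped only replicate 2. Il2ra exceeded Il2rb by 6.14 ± 0.589 on the log2(RPKM + 0.5) scale, 70.6-fold, and Il2rb lay below Il2rg by 33.5-fold (difference -5.07 ± 0.470). These folds depend on the pseudocount because Il2rb is near it. With pseudocounts of 1 and 0.1 the first was 50.6-fold and 104.5-fold and the second 24.2-fold and 49.4-fold, and the plain ratios of mean RPKM were 114 and 53.2.

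Il15ra (Entrez 16169), which binds and presents IL-15, stood at 7.13, 7.66 and 6.22 RPKM, or 7.001 ± 0.724 RPKM. Its 3 counting intervals overlapped. It exceeded the Il2rb chain with which it works by 2.57 ± 0.484 on the log2(RPKM + 0.5) scale, 5.95-fold, and the ratio of their mean RPKM was 8.93. Il2ra and Il15ra are next to each other on mouse chromosome 2 in the RefSeq annotation, with no coding gene between them, and Il2ra stood 12.2, 14.1 and 11.8 times as high in replicates 1, 2 and 3.

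The receptors for IL-4 and IL-21 form another pair of neighbours, on chromosome 7. Il4ra (Entrez 16190), the chain for IL-4 and IL-13, stood at 13.7, 15.9 and 19.5 RPKM, or 16.3 ± 2.90 RPKM, with no overlap between the 3 counting intervals and replicate 3 highest. Il21r (Entrez 60504), the IL-21 chain, varied least of the family, at 22.6, 23.5 and 25.1 RPKM, or 23.7 ± 1.26 RPKM, a coefficient of variation of 5.33%. Il21r exceeded Il4ra by 0.54 ± 0.171 on the log2 scale, and Il4ra lay below Il2rg by 1.34 (difference -1.34 ± 0.351). Both directions rest on division by gene length, which is 5094 bases for Il4ra: with CPM they turned to -0.41 ± 0.176 and 0.29 ± 0.357. Il21r lay below Il2rg by 0.80 per length (difference -0.80 ± 0.185), but by -0.25, -0.21 and 0.096 in replicates 1, 2 and 3 with CPM, so that sign differed between libraries.

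Il9r (Entrez 16199), the receptor chain for IL-9, a cytokine best known from T cells and mast cells, was the lowest. It had 19, 13 and 19 counts, or 0.496, 0.352 and 0.191 RPKM, and replicate 3 was lowest although it was the deepest. The mean was 0.346 ± 0.152 RPKM, above 26.2% of the genes with a count. It lay below Il2rg by 50.3-fold on the log2(RPKM + 0.5) scale (difference -5.65 ± 0.173), a size set largely by the pseudocount: it was 31.8-fold with a pseudocount of 1 and 97.5-fold with 0.1, and the ratio of mean RPKM was 120.5. Gm12109 overlaps Il9r in the annotation, and Gm39760 overlaps Il2ra; no source used here gives the strand setting of the counting, and the split of reads in the overlaps is uncertain.

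The 10 differences fixed for testing each had 1 sign in all 3 libraries on the log2(RPKM + 0.5) scale. With 3 libraries the exact sign-flip permutation test (two-sided) cannot go below p = 0.25, which every difference reached, and the adjusted p over the 10 was 0.25 too. Neighbours in the order were set by the means of these same libraries, so what follows describes the order and does not test it. In RPKM each gene stood above its next lower neighbour in all 3 libraries. Ranges overlapped only for Crlf2 and Il4ra, where the lowest Crlf2 library (17.5 RPKM) lay below the highest Il4ra library (19.5 RPKM). In mean CPM Il4ra stood above Il2rg, Il21r and Crlf2. For Il2rb over Il9r the mean log2(RPKM + 0.5) difference was 0.586, below its SD of 0.618. Il2rb and Il9r had ranges that came within 0.0416 RPKM of touching, and in replicates 1 and 2 their counting intervals overlapped.

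**Figure D2:**
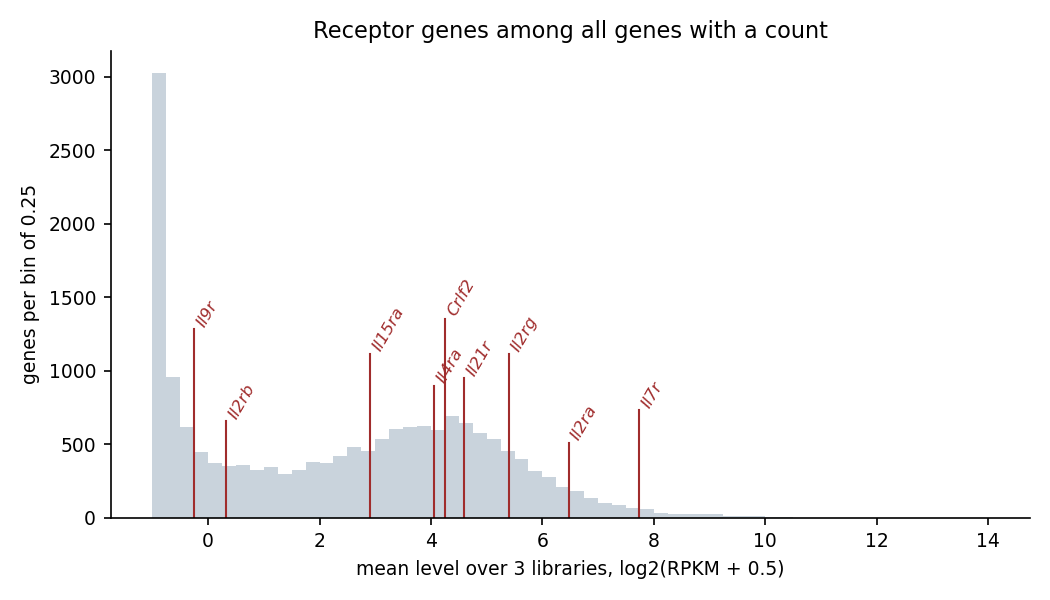
Histogram of the mean log2(RPKM + 0.5) level of the 17423 genes with a count in any library (bars, genes per bin of 0.25), with a red line at each receptor gene, whose height carries no value. Il7r and Il2ra lie in the upper tail at 7.74 and 6.47, and Il9r and Il2rb lie in the low shoulder at -0.26 and 0.33.

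Grouped by the cytokine they bind, the chains gave different lowest members. For IL-7 the lowest required chain was Il2rg, at 41.7 ± 3.26 RPKM, and for TSLP it was Crlf2, at 18.7 ± 1.57 RPKM. For IL-21 it was Il21r (23.7 ± 1.26 RPKM), and for IL-4 through the gamma chain it was Il4ra (16.3 ± 2.90 RPKM). The alternative IL-4 and IL-13 receptor replaces the gamma chain by Il13ra1, which had 0.339 ± 0.145 RPKM. For both IL-2 and IL-15 the lowest was Il2rb, at 0.784 ± 0.334 RPKM, and for IL-9 it was Il9r. Transcripts of every chain of the IL-7, TSLP, IL-21 and gamma chain IL-4 receptors thus exceeded 10 RPKM in each library, whereas the IL-2, IL-15 and IL-9 receptors each had a chain near or below 1 RPKM.

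The promoters of the 3 most abundant genes are shown because the family's level is mostly theirs and because ETS factors such as PU.1 and GABP are known to act at Il7r in B-lineage cells. Each run gives the 250 bases before the RefSeq start site in GRCm38.p6, 5′ to 3′ on the gene's strand, with letter matches in capitals. The letters searched on both strands were AGGAAG and CGGAAG, cores of ETS sites, and TTCNNNGAA, the core of a Stat element.
Il7r (chr15:9529877-9530126, minus strand): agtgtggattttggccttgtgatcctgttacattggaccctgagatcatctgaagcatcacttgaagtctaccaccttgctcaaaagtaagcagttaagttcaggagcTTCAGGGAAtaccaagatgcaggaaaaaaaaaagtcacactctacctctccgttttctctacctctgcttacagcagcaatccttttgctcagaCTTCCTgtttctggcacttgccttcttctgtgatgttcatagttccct
Il2ra (chr2:11642542-11642791, plus strand): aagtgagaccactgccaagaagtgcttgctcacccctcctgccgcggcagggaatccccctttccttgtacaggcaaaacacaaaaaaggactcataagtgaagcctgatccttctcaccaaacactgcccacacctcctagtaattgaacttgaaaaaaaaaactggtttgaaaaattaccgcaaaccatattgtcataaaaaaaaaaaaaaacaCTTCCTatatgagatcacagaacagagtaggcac
Il2rg (chrX:101268256-101268505, minus strand): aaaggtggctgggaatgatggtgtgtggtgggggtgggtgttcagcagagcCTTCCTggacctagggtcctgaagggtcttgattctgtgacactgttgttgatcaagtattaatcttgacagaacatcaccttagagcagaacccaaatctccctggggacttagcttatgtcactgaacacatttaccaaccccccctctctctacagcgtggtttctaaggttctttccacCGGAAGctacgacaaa

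Il7r held AGGAAG, read on the opposite strand as CTTCCT, at 48 to 43 bases before the start, and TTCNNNGAA at 142 to 134 bases before it. Il2ra held the same ETS letters at 34 to 29 bases before the start. Il2rg held AGGAAG at 199 to 194 bases and CGGAAG at 16 to 11 bases before the start. Of 32851 promoters of this length in the table, 29.5% held AGGAAG, 13.6% held CGGAAG and 7.02% held TTCNNNGAA. AGGAAG was also found before Crlf2, Il4ra and Il15ra. Il15ra has 2 promoter entries: the first held AGGAAG and CGGAAG, and the second held none of the 3 motifs. No match was found before Il21r or Il9r. A promoter was matched for 8 of the 9 genes, all but Il2rb. A match of letters is a description of the sequence, and no binding was measured.

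The spread between libraries was then tested for each gene. Counts of Il7r, Il2ra, Il4ra, Il2rg and Il2rb, 5 of the 8 receptor genes that passed the filter on low counts, varied beyond counting noise (chi-square test against Poisson counts, Benjamini-Hochberg adjustment over 12147 genes). The background was 54.6% of all genes tested, so a call of this kind was the common outcome at this depth. Adjusted p was 1.1e-129 for Il7r, 7.0e-124 for Il2ra, 1.3e-20 for Il4ra, 0.000483 for Il2rg and 0.00306 for Il2rb. Crlf2 (0.0506), Il21r (0.0575) and Il15ra (0.146) missed the threshold of 0.05. Crlf2 and Il21r passed it with DESeq2 size factors (0.0437 and 0.0461) and without scaling beyond library totals (0.0426 and 0.0453), which made 7 of 8. Il9r was not among the genes tested, because its counts were too low in replicate 3 for that depth.

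Size sets these apart more than the p does, since a gene with many counts shows a small change. From the highest to the lowest library Il7r changed 1.33-fold, Il2ra 1.48-fold, Il4ra 1.42-fold and Il2rg 1.15-fold. Il2rb changed 2.17-fold on few counts. Its call was lost without replicate 3 (adjusted p = 0.728) and when replicate 3 was sampled down to the smallest total (0.110), and the Il2rg call was lost without replicate 3 (0.920). Without replicate 3 the calls of Il7r, Il2ra and Il4ra held, with 1.07-fold, 1.25-fold and 1.16-fold between replicates 1 and 2.

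**Figure D3:**
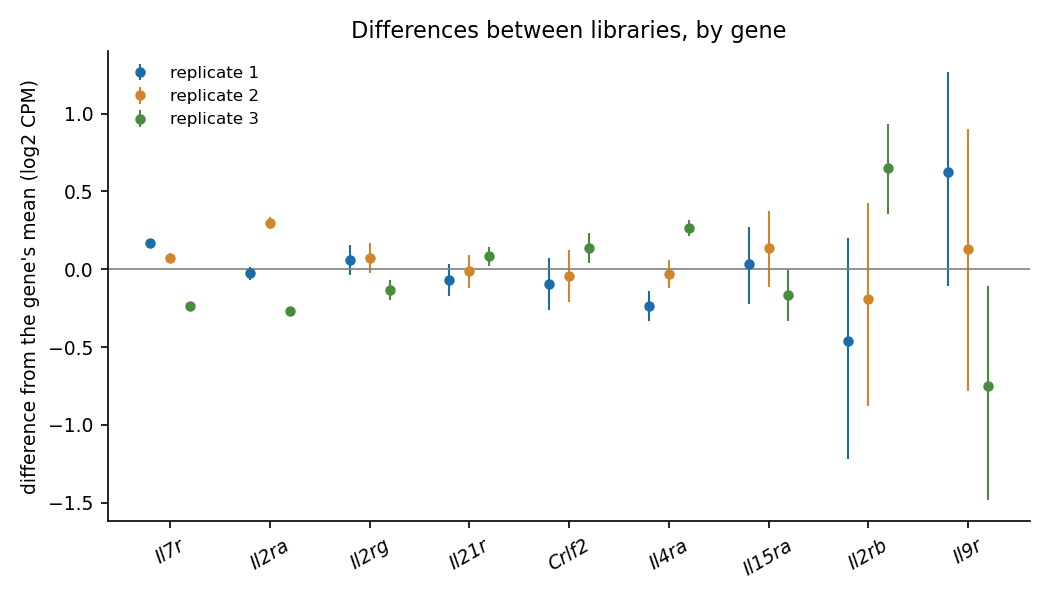
Difference of each gene in each library from its own mean over the 3 libraries, in log2 CPM, with bars for the exact Poisson 95% interval of that library's count. Replicate 3 is the lowest library for Il7r, Il2ra, Il2rg, Il15ra and Il9r and the highest for Il21r, Crlf2, Il4ra and Il2rb.

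Il7r, Il2ra, Il2rg, Il15ra and Il9r were lowest in replicate 3, and Il21r, Crlf2, Il4ra and Il2rb were highest there. Any 1 of 3 libraries is often an extreme. The share of all genes with an extreme in replicate 3 was not taken, so nothing is read from this pattern. Set against replicates 1 and 2 in edgeR's quasi-likelihood test, replicate 3 differed by -0.36 ± 0.129 (log2, SE) for Il7r, -0.41 ± 0.167 for Il2ra, 0.396 ± 0.131 for Il4ra and 0.97 ± 0.323 for Il2rb. Replicate 3 is the lone library of its side, so it adds no spread of its own and is assumed to vary alike. These errors rest on the spread of replicates 1 and 2, drawn by edgeR toward that of other genes. None of the 8 genes tested passed after Benjamini-Hochberg adjustment over 12147 genes (smallest adjusted p = 0.418, for Il4ra and Il2rb), where 0.0741% of all genes did. These 4 were under 0.05 before adjustment, as were 9.62% of all genes tested. DESeq2 also called none after adjustment, with Il7r, Il2ra and Il4ra under 0.05 before it, against 3.77% of all genes.

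Sums of marker genes differed between the libraries too, and whether they changed together with the receptor genes was not tested. The 10 pre-B markers, which include Il2ra itself, summed to 11920, 11620 and 10530 RPKM, lowest in replicate 3. Ighm gave most of that sum, at 7234, 6774 and 6239 RPKM. Pax5 and Ebf1 were lowest in replicate 1, and the other pre-B markers in replicate 3. The 6 markers of earlier B-lineage stages summed to 110.1, 113.0 and 139.6 RPKM, highest in replicate 3. Kit went the other way, at 1.07, 0.870 and 0.432 RPKM, and the rest of these markers were highest there. The part of cell stage in the receptor levels was not tested. The proliferation marker Mki67 stood at 269, 212 and 295 RPKM in replicates 1, 2 and 3, highest in replicate 3. The neutrophil and basophil sums given above were highest in replicate 3, as were those of 8 monocyte and macrophage markers (12.4, 15.4 and 20.6 RPKM) and 7 dendritic cell markers (11.6, 11.7 and 22.03 RPKM). Lowest in replicate 3 were sums of mature B cell markers (209.2, 226.5 and 190.3 RPKM) and erythroid markers (8.77, 8.16 and 7.48 RPKM). So was that of stroma and endothelium markers (80.6, 99.3 and 68.3 RPKM). Il4ra, Il2rb and Crlf2 are also known from myeloid or innate cells, and the part of such cells in their levels was not tested. For T and NK cells, where Il2rb is abundant, 17 markers summed to 7.34, 9.52 and 8.95 RPKM, with 1 of the 17, Klrb1c, at 1 RPKM or more in every library and none at no counts. Klrb1c made up much of that sum, at 3.36, 3.55 and 2.42 RPKM. The other 16 summed to 3.97, 5.97 and 6.53 RPKM, a sum taken after its values were seen. None of these 16 passed the filter on low counts. The sum of all 17 was highest in replicate 2, unlike Il2rb, so nothing is read from the sum of 16. The part of T and NK cells in the level of Il2rb was not tested. Regulatory T cells carry CD25 as well. Their 5 markers summed to 7.96, 7.47 and 5.78 RPKM, lowest in replicate 3 like Il2ra, and 3 of the 5 exceeded 1 RPKM in every library: Foxp3 (3.48 ± 0.481 RPKM), Tnfrsf4 (2.05 ± 0.638) and Tnfrsf18 (1.397 ± 0.302). Ikzf2 stood at 0.126 ± 0.0164 and Ctla4 at 0.0251 ± 0.0225 RPKM. Their part in the level of Il2ra was not tested. Markers of group 2 innate lymphoid cells, which use the IL-7, TSLP and IL-9 receptors, summed to 0.109, 0.140 and 0.200 RPKM over 5 genes.

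The spread of each receptor gene was also set against that of genes of like abundance. In the edgeR intercept-only fit, the quasi-dispersion of Il2ra was 5.73 times the prior (adjusted p = 0.931) and that of Il4ra 5.28 times (adjusted p = 0.941). Il7r and Il2rb followed at 3.40 and 3.31 times, Il2rg was at 1.003 times, and Crlf2, Il15ra and Il21r were below 1. No receptor gene passed after adjustment, where 0.0165% of the tested genes did. Before adjustment Il2ra and Il4ra, 2 of the 8, were under 0.05, as were 5.30% of all genes tested. With a robust fit it was Il2ra alone, against 4.97%.

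**Figure D4:**
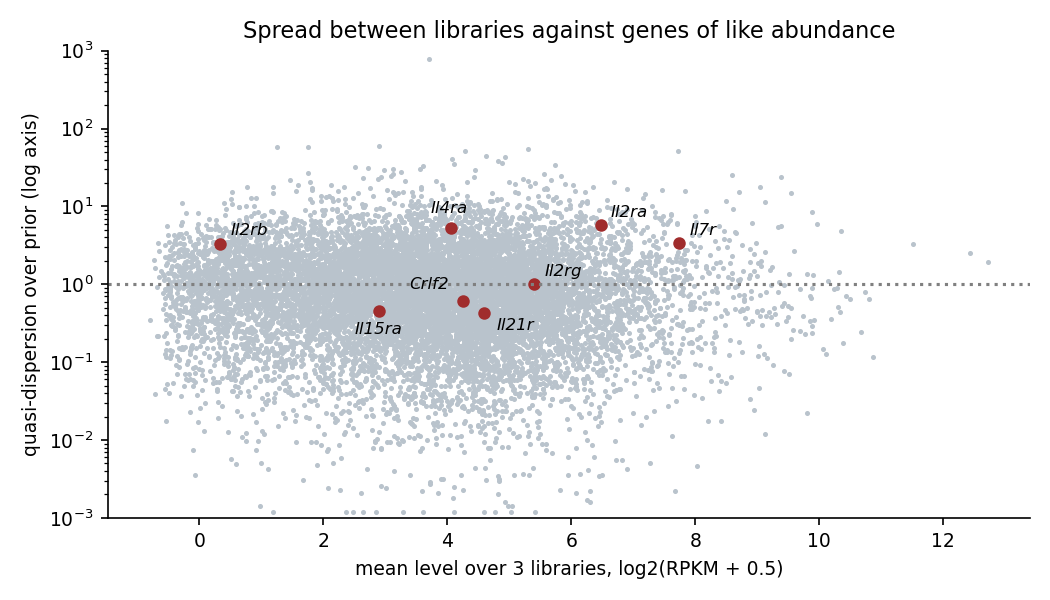
Spread between the 3 libraries for each of 12147 tested genes (grey), as quasi-dispersion over the prior value on a log axis, against the mean log2(RPKM + 0.5) level, with the 8 tested receptor genes in red and the smallest values drawn at the lower edge. Il2ra, at 5.73, and Il4ra, at 5.28, lie above the dotted line of the prior, inside the cloud of other genes.

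Most ligands had few or no counts. Il2, Il9, Il13, Il21 and Tslp had no counts in any library, which for Il2 allows up to 0.264 RPKM (3 counts in the shallowest library). Il7 had 1, 2 and 0 counts and Il4 had 1, 0 and 3. Il15 was the exception, at 3.75, 3.82 and 3.40 RPKM in replicates 1, 2 and 3, or 3.66 ± 0.228 RPKM (58, 57 and 136 counts). Its receptor chain Il15ra was in the same libraries at 7.001 RPKM on average, and Il2rb at 0.784 RPKM.

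Downstream, all 11 Jak and Stat genes exceeded 1 RPKM in every library, a level reached by 42.4% of all genes in the table. Jak1, which sits on the private chains, stood at 70.7 ± 4.50 RPKM, and Jak3, the kinase of the gamma chain, at 7.64 ± 0.676 RPKM, the lowest of the Jak kinases. Stat6, the factor of IL-4 signals, was at 67.2 ± 2.15 RPKM, and the IL-7 factors Stat5b and Stat5a were at 26.3 ± 1.03 and 12.8 ± 0.943 RPKM. Stat3, a factor of IL-21 signals, stood at 38.5 ± 1.92 RPKM. The summed level of the list was 325, 340 and 322 RPKM in replicates 1, 2 and 3, and 7 of the 11 genes varied beyond counting noise, against 54.6% of all genes tested.

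Of 14 inhibitors, 13 exceeded 1 RPKM in every library, against 42.4% of all genes in the table. The phosphatases Ptprc and Ptpn6 led at 107 ± 9.09 and 96.8 ± 8.15 RPKM, with the adaptor Sh2b3 at 69.6 ± 5.52 RPKM. Ptprc is the gene of the positive B220 gate, so its level describes the cells that were collected. Among the feedback inhibitors that Stat factors induce, Socs1 stood at 30.7, 32.2 and 37.2 RPKM, whereas Socs2 (2.79 ± 0.661 RPKM), Cish (1.34 ± 0.450 RPKM) and Socs3 (0.632 ± 0.441 RPKM) were low. Cish and Socs2 are textbook Stat5 targets. Of the 13 inhibitors tested, 10 varied beyond counting noise, against 54.6% of all genes.

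Genes known to be induced by IL-7 or Stat5 were split. Of 13, 10 exceeded 1 RPKM in every library, against 42.4% of all genes in the table. Ccnd3 (293 ± 70.2 RPKM), Mcl1 (164 ± 15.3 RPKM), Pim1 (138 ± 2.75 RPKM) and Bcl2l1 (123 ± 3.88 RPKM) led the list. Mycn (0.860 ± 0.299 RPKM) and Bcl2 (0.304 ± 0.106 RPKM) were lowest. The median log2(RPKM + 0.5) level of the 13 was 2.07, and that of all genes with a count was 2.56. All 14 genes that IL-7 signalling is known to hold down, or that climb as it fades, exceeded 1 RPKM in every library, with a median of 7.55. That level was reached by 42.4% of all genes in the table. Spib, at 868 ± 28.4 RPKM, and Cxcr4, at 406 ± 68.8 RPKM, led the 14, with Rag1 at 401 ± 56.7 RPKM. Foxo3 and Bcl6 were lowest at 15.2 ± 1.33 and 8.66 ± 1.26 RPKM. Rag1 and Rag2 are also among the pre-B markers, and both lists were chosen with earlier results of these data known. The strength of IL-7 signalling was not tested. Counts of 11 of the 13 and of all 14 varied beyond counting noise, where 54.6% of all genes did, and nothing is read from these counts. In none of the lists of ligands, Jak and Stat factors, inhibitors, induced or repressed genes or other receptor chains did a gene pass the edgeR test of replicate 3 against the others, in either direction. Of the 65 genes of these lists that were tested, 9 were under 0.05 before adjustment in edgeR, where 9.62% of all genes were. DESeq2 called 0 after adjustment and 6 before it, where 3.77% of all genes were.

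**Figure D5:**
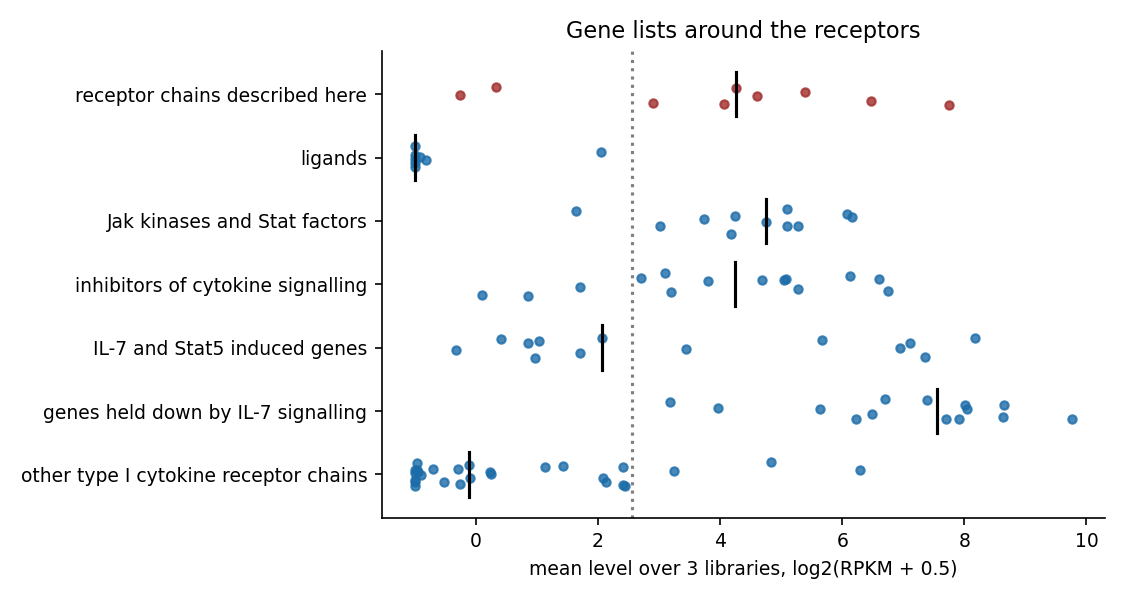
Mean level over 3 libraries, as log2(RPKM + 0.5), of each gene (points, spread vertically at random) in the receptor family and in 6 lists around it, with a black bar at each list's median and a dotted line at the median of all genes with a count, 2.56. Most ligands lie at the left edge, where a gene without counts falls, and the receptor family has a median of 4.26.

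The rest of the type I cytokine receptor superfamily gives the comparison for level. Of 27 other chains, 10 exceeded 1 RPKM in every library, against 7 of the 9 described here and 42.4% of all genes in the table. Il13ra2, Osmr, Cntfr and Ghr had no counts, whereas each of the 9 had counts in every library. The medians were -0.12 and 4.26 on the log2(RPKM + 0.5) scale. The orphan chain Crlf3 (77.7 ± 1.99 RPKM), the GM-CSF chain Csf2ra (28.1 ± 1.57 RPKM) and the IL-3 chain Il3ra (9.10 ± 1.37 RPKM) led the other chains, followed by Csf3r (5.11 ± 1.64 RPKM), the receptor of the neutrophil growth factor G-CSF. Csf3r was 4.11, 4.23 and 7.004 RPKM in replicates 1, 2 and 3. It is itself among the markers of the neutrophil sum, which was also highest in replicate 3. Among these 36 chains only Crlf3 stood between the levels of Il2ra and Il2rg, and none of the 27 exceeded Il7r or Il2ra.

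By distance in log2(RPKM + 0.5) over the 3 libraries, the genes nearest to Il7r of 12147 were Trp53inp1 (distance 0.1998) and Rsrp1 (0.201). For Il2ra they were Cpm (0.172) and Cytip (0.197), for Il2rg Asnsd1 (0.0298) and Tctn1 (0.0403), and for Il21r Brix1 (0.0186) and Ttc1 (0.0349). The distance mostly reflects a like mean level, and 3 libraries of 1 group cannot show shared variation.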

How the data were processed

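The authors deposited raw read counts per Entrez gene with a gene length in bases, made with featureCounts on mm9 per the submitters' processing notes. Per the labels, CASAVA 1.8.0 was used for replicate 3 and 1.8.2 for the others. No source used here gives the aligner, annotation, strand setting or read length. Symbols came from RefSeq for GRCm38.p6 by Entrez identifier (24176 of 26286 matched). Its gene coordinates are not printed, apart from those of the promoter sequences.

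Counts were scaled by TMM in edgeR 4.0.16 (R 4.3.3, limma 3.58.1; DESeq2 1.42.0 as an alternative), and RPKM was computed from them. filterByExpr (minimum count 10, minimum total 15) kept 12147 genes. A pseudocount of 0.5 was used on the log2 scale. Exact Poisson intervals (95%) and the 3-count floor speak only of counting error. Tests were tried on simulated data first. The receptor genes, lists and tests were chosen with earlier results of these data known. Genes named beside the receptors are sort gate genes, the highest and lowest of each list, the nearest genes by level and, chosen after their values were seen, Mki67, Xist and Ddx3y as library checks and others with a known role in the pathway.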

Additional observations from a re-analysis of the deposited data

How the results depend on the processing

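The count of 7 receptor genes at 1 RPKM or more held with a minimum of 2 RPKM, without scaling and without replicate 1, 2 or 3, and was 8, with Il2rb added, with TPM, CPM or a minimum of 0.5 RPKM. Of the 10 fixed differences, the CPM scale turned 2: Il4ra minus Il2rg became 0.294 and Il21r minus Il4ra became -0.413. Il21r minus Il2rg moved from -0.80 to -0.12, with a positive value in replicate 3. The other pseudocounts, TPM and leaving out a replicate turned none, but the pseudocount moved the folds of Il2rb and Il9r: Il9r lay below Il2rg by 31.8-fold with 1 and 97.5-fold with 0.1. Receptor genes beyond Poisson noise numbered 5 of 8, beside 6627 of all 12147 genes tested. The number was 8 of 9 when all genes with a count were tested, beside 6744 of 17423. That setting added Il21r, Crlf2 and Il9r. DESeq2 size factors and no scaling each gave 7, adding Crlf2 and Il21r, beside 6621 and 6627 of 12147 genes. Leaving out a replicate gave 3 to 7, with 3 without replicate 3, the deepest library. Thinning replicate 3, an alternative chosen after seeing the data, gave 5, with Crlf2 in place of Il2rb. Over all genes that count was 5590 of 12918 without replicate 1 and 4256 of 12954 without replicate 2. It was 3145 of 12217 without replicate 3 and 5613 of 12090 with replicate 3 thinned. No receptor gene passed the spread test or the test of replicate 3 in any setting run. Over all genes the spread test called 2, and 47 with all genes with a count, 8 without replicate 1, 44 without replicate 2 and 0 with the robust fit (604 under 0.05 before adjustment). The test of replicate 3 called 9 genes, and 23 without scaling, 36 with DESeq2 and 0 with all genes with a count (1224 before adjustment). Left with 1 library on each side, it gives values only: Il2ra was -0.24 without replicate 2 and -0.57 without replicate 1. No paired analysis was possible because the libraries form 1 group. The cause of these changes was not tested. Depth limits Il2rb and Il9r, with at most 101 and 19 counts in a library.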
